A study of Mus musculus with 4 samples.

Results

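The genes described here are 9 retinoid binding and metabolism genes: Crabp1, Crabp2, Rbp4, Aldh1a1, Aldh1a2, Aldh1a3, Cyp26b1, Stra6 and Dhrs3. They were taken by gene name from the non-control probes of the array, and each has 1 probe printed as 1 spot, so 9 probes of 55681 and 9 gene names of 35080 are covered. Of the 9 genes, 8 were well above background on all 4 arrays and entered the statistical model of 24041 genes. Stra6 was well above background on 1 array only and is given as measured values. The genes were chosen by their annotated role and selected on intensities with and without BMP2 that were already known, so the BMP2 values below are a description, and calls by the model over all genes are counted for them without being read as a test.

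Expression was measured in mouse primary osteoblasts cultured in 10% serum and treated for 72 h, with 1 single-colour Agilent array per treatment. The 4 treatments were BMP2 (200 ng/ml) with LOXL2 (4 µg/ml), BMP2 alone (200 ng/ml), LOXL2 alone (4 µg/ml), and neither protein. BMP2 is a growth factor that induces skeletal cell differentiation. LOXL2 belongs to the lysyl oxidases, extracellular enzymes that act on collagen. The cell type is entered as pre-osteoblasts for the cultures without BMP2 and as osteoblasts for those with it, and the labels name neither a mouse strain, an age nor a bone of origin. The stated aim of the series is to find factors that regulate osteoblast differentiation under BMP2.

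Retinoic acid, the active form of vitamin A, is made from retinol in a chain of steps. Retinol travels in blood on Rbp4, enters cells through receptors such as Stra6, is oxidised to retinaldehyde, and is then oxidised irreversibly to retinoic acid by the Aldh1a enzymes. Inside the cell retinoic acid is bound by Crabp1 and Crabp2, acts through nuclear receptors of the RAR and RXR families, and is cleared by Cyp26 enzymes. In the developing skeleton, retinoic acid restrains cartilage formation, and loss of Cyp26b1 in mice disturbs limb and skull bones.

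The arrays were alike in signal, with 60.4% to 62.2% of non-control spots well above background and no saturated spot. An intensity is given below as the scanner software's processed signal ± the error the software assigns to that spot. This assigned error, called the spot error below, leaves out any variation from culture to culture. For bright probes it was nearly constant, at 0.144 on the log2 scale. Spots of probes printed 10 times varied less, with a median SD of 0.0649 to 0.0674. Differences are on the log2 scale after each array was divided by its 75th percentile. Levels of different genes are not compared, because each probe has its own brightness. No treatment was replicated, so a difference between 2 arrays has no test. The SEs and p-values of the model rest on how far the BMP2 difference with LOXL2 departed from that without it, moderated over all genes, and not on a spread between replicates. All 10 osteoblast markers looked for were modelled. With BMP2, 6 of them were called higher at an adjusted p under 0.05 and 0 lower, where 10.3% and 9.97% of all genes were. Sp7 and Alpl were among those called higher, while Runx2, at 0.08, and Col1a1, at -0.06, were not called. The other 2 probes of Runx2 gave BMP2 differences of 0.68 and 0.87 under LOXL2 and 0.46 and 0.58 without it. All 4 arrays were on 1 slide.

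Among these genes, BMP2 was accompanied by a lower signal for the retinoic acid binding protein Crabp1 and for the retinoic acid synthesising enzymes Aldh1a1 and Aldh1a2. The signal was higher for Aldh1a3, of the same enzyme family, and for Rbp4. The fitted change was below 2-fold for Rbp4, at 1.94-fold, and for Crabp2, Cyp26b1 and Dhrs3. At least 2-fold in the same direction in both pairs of arrays (BMP2 against untreated, and BMP2 with LOXL2 against LOXL2), 3 of the 8 modelled genes were lower and 1 was higher, where 2.74% and 2.06% of all 24041 genes were. By the limma model at an adjusted p under 0.05, 3 were lower and 2 higher, where 9.97% and 10.3% of all genes were. Nothing is read from these counts, since the same contrast was known when the genes were listed. Where both values with BMP2 are said below to lie above or below both without it, that is a description only. The share of all genes separated in this way was not counted. The median fitted BMP2 effect was -0.11 over the 8 genes and 0.02 over all genes.

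**Figure D1:**
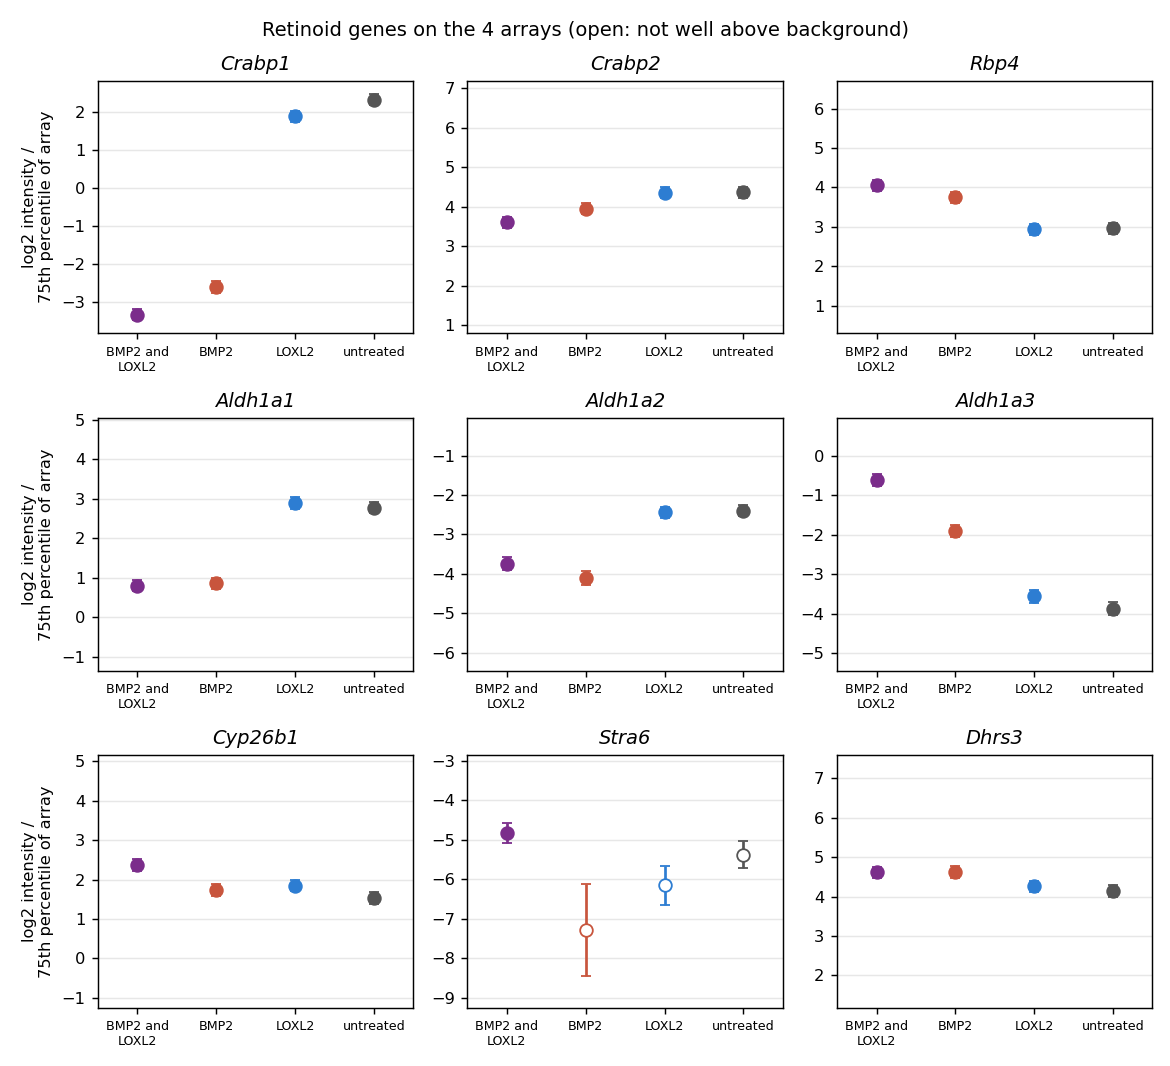
Log2 intensity relative to the 75th percentile of the array for each of the 9 genes on the 4 arrays, with 1 point per array and bars for the error given by the scanner software; open points were not well above background. Crabp1, Crabp2, Aldh1a1 and Aldh1a2 are lower and Aldh1a3, Rbp4 and Dhrs3 higher on both arrays with BMP2 than on both without it. The share of all genes separated in this way was not counted, so nothing is read from it.

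Rbp4, which binds retinol for transport, had an intensity of 12374 ± 1237 with BMP2 and LOXL2, 9765 ± 977 with BMP2, 5555 ± 556 with LOXL2 and 5543 ± 554 without treatment. Both arrays with BMP2 lay above both arrays without it, and the arrays with LOXL2 alone and without treatment were within the spot error of each other. The log2 difference was 1.12 between the arrays with both proteins and with LOXL2 alone, and 0.79 between BMP2 and untreated. The fitted BMP2 effect was 0.95 ± 0.11 (log2 ± SE, 2 arrays with BMP2 against 2 without), a 1.94-fold higher level. Its probe, A_55_P2006118, lies on the minus strand of chromosome 19 from 38191120 to 38191179 on mm9.

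Stra6, the membrane receptor that takes up retinol from Rbp4, gave 26.0 ± 4.55 with both proteins, 4.68 ± 3.77 with BMP2, 10.2 ± 3.48 with LOXL2 and 17.1 ± 3.94 without treatment. Only the first of these values was well above background. Set against the lowest signal well above background on the dim array, the signal with both proteins was 1.97-fold higher for LOXL2 alone and 1.74-fold for BMP2 alone. These ratios leave out the spot error and are not lower limits. The untreated value of 17.1 was itself not well above background, yet exceeded the lowest such signal on its array, 13.9. Neighbouring values in the order of the 4 arrays differed by less than 2 spot errors, so no order is read. The probe, A_55_P1973451, lies on chromosome 9 from 58001701 to 58001760 on mm9.

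Dhrs3 reduces retinaldehyde back to retinol and so withholds substrate from retinoic acid synthesis. Its intensity was 18186 ± 1819 with both proteins, 17895 ± 1790 with BMP2, 13858 ± 1386 with LOXL2 and 12491 ± 1249 without treatment. Both values with BMP2 exceeded both without it, although each neighbouring pair in the order was within 2 spot errors. The fitted BMP2 effect was 0.42 ± 0.07, or 1.34-fold, with log2 differences of 0.35 under LOXL2 and 0.49 without it. Each had a spot error of 0.204, and the difference without LOXL2 was beyond 2 such errors while that under LOXL2 was not. The probe, A_55_P2020128, lies on chromosome 4 from 144517485 to 144517544 on mm9.

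Aldh1a1, Aldh1a2 and Aldh1a3 are retinaldehyde dehydrogenases that carry out the last step of retinoic acid synthesis. Aldh1a1 had an intensity of 1291 ± 129 with both proteins, 1313 ± 131 with BMP2, 5385 ± 539 with LOXL2 and 4879 ± 488 without treatment. The arrays fell into a low pair with BMP2 and a high pair without it, and within each pair the values were inside the spot error. The log2 difference was -2.10 under LOXL2 and -1.92 without it, and the fitted BMP2 effect was -2.01 ± 0.07, a level 4.03-fold lower. The probe of Aldh1a1, A_51_P334942, lies on chromosome 19 from 20717764 to 20717823 on mm9.

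Aldh1a7, a close paralog of Aldh1a1, showed 1494 and 1493 on the arrays with both proteins and with BMP2 alone, against 4978 and 5401 on those with LOXL2 alone and without treatment. Its fitted BMP2 effect was -1.83 ± 0.06. Whether the probes of these similar genes share signal was not tested, so the 2 results are not counted as separate.

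Aldh1a2, the main retinoic acid synthesising enzyme of the early mouse embryo, was dim on all arrays, with 55.6 ± 6.44 with both proteins, 42.1 ± 5.39 with BMP2, 133 ± 13.6 with LOXL2 and 135 ± 13.9 without treatment. The 2 arrays with BMP2 were within 2 spot errors of each other, and so were the 2 arrays without it. The fitted BMP2 effect was -1.504 ± 0.14, or 2.84-fold lower, from log2 differences of -1.30 under LOXL2 and -1.71 without it. With the normexp background correction, which here adds an offset of 50 to every signal, the effect was -0.87. Such an offset by itself shrinks ratios between dim signals. The probe, A_52_P58145, lies on chromosome 9 from 71143931 to 71143990 on mm9.

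Aldh1a3 ran the other way. Its intensity was 486 ± 48.7 with both proteins, 193 ± 19.5 with BMP2, 61.2 ± 6.65 with LOXL2 and 48.3 ± 5.61 without treatment. The signal was highest with both proteins, intermediate with BMP2 alone and lowest on the 2 arrays without BMP2, and of the neighbours in this order only LOXL2 alone and untreated were within 2 spot errors. The log2 difference with BMP2 was 2.95 under LOXL2 and 1.97 without it, which gave a fitted effect of 2.46 ± 0.30, or 5.51-fold higher. This SE, the widest among the 8 genes, reflects the gap between those 2 differences. With normexp the effect was 1.73. The probe, A_52_P87843, lies on the minus strand of chromosome 7 from 73535785 to 73535844 on mm9.

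The retinoic acid binding proteins were unlike each other in size of difference. Crabp1, a cytosolic carrier of retinoic acid, gave 73.4 ± 7.94 with both proteins, 119 ± 12.2 with BMP2, 2698 ± 270 with LOXL2 and 3568 ± 357 without treatment. All neighbours in this order were more than 2 spot errors apart, and the gap between the arrays with and without BMP2 was 4.51 on the log2 scale. The log2 difference was -5.24 under LOXL2 and -4.94 without it. The fitted BMP2 effect of -5.09 ± 0.10, a level 34.1-fold lower, ranked 8 from the lowest of 24041 genes, and it was -4.39 with normexp. The probe of Crabp1, A_52_P185907, lies on chromosome 9 from 54616192 to 54616251 on mm9.

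Crabp2, which carries retinoic acid to its nuclear receptors, had 9055 ± 905 with both proteins, 11194 ± 1119 with BMP2, 14801 ± 1480 with LOXL2 and 14664 ± 1466 without treatment. Both values with BMP2 were below both without it, and each step in the order was within 2 spot errors. The fitted BMP2 effect was -0.58 ± 0.11, or 1.498-fold lower, with log2 differences of -0.75 under LOXL2 and -0.42 without it. Each of these differences had a spot error of 0.204 and was beyond 2 such errors. The probe, A_55_P2059432, lies on chromosome 3 from 87757207 to 87757266 on mm9.

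Cyp26b1, a cytochrome P450 that inactivates retinoic acid, had 3845 ± 384 with both proteins, 2417 ± 242 with BMP2, 2595 ± 260 with LOXL2 and 2050 ± 205 without treatment. The array with both proteins was above the other 3 by more than 2 spot errors, and the groups with and without BMP2 overlapped. Its fitted BMP2 effect was 0.37 ± 0.11, with log2 differences of 0.53 under LOXL2 and 0.21 without it. The probe, A_51_P501844, lies on the minus strand of chromosome 6 from 84521952 to 84522011 on mm9.

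The promoters of Crabp1 and Aldh1a2 are shown because both genes were at least 2-fold lower with BMP2 in both pairs of arrays and each has a single start window in the RefSeq table of GRCm38.p6. A window runs from 250 bases before the start to 50 after it, both of these are on the plus strand, and the table held 14 windows for 7 of the 9 genes. Capitals mark GGCGCC, a GC-rich element that BMP-activated SMAD proteins can bind.
Crabp1, chr9:54764498-54764797: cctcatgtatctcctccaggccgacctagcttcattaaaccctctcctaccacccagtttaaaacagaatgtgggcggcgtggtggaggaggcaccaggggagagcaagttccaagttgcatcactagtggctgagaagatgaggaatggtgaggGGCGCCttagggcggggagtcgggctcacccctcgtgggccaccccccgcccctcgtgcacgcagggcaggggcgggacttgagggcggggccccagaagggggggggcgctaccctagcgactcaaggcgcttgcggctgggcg
Aldh1a2, chr9:71215539-71215838: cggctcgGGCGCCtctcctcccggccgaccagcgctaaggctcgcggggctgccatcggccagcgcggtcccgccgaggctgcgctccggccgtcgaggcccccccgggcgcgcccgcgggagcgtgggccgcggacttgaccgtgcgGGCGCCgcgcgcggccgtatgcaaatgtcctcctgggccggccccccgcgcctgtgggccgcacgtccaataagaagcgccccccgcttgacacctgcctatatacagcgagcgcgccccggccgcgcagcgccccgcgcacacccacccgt
The element begins 95 bases before the start of Crabp1, and 243 and 102 bases before that of Aldh1a2. GGCGCC, which reads the same on both strands, was present in 11.9% of all 32851 windows and in 2 of the 14 windows of these genes. Those 2 windows are the ones shown, so the display holds every match among the 7 genes. Aldh1a1, also at least 2-fold lower with BMP2 in both pairs, had no GGCGCC in its windows. The element is therefore not read as a feature of the lowered genes. The windows of Crabp1 and Aldh1a2 are 65% and 78% G and C, against a median of 52.7% over all windows. The retinoic acid receptor core motif AGGTCA, searched on both strands, was in 16.3% of all windows and in 0 of these 14. A match is a description of the letters and not evidence of binding.

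To see whether the response to BMP2 depended on LOXL2, the 2 BMP2 differences, which share no array, were set side by side. All 8 modelled genes had the same sign in both pairs, as did 79.4% of all genes. The BMP2 values were known when the genes were listed, so nothing is read from this agreement. The BMP2 difference under LOXL2 minus that without it was 0.98 for Aldh1a3 and ran from -0.33 to 0.42 for the other 7. At least 2-fold was reached by 2.30% of all genes and by 0 of these 8. The median size of this value over all genes was 0.108. With 1 array per treatment it has no test.

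**Figure D2:**
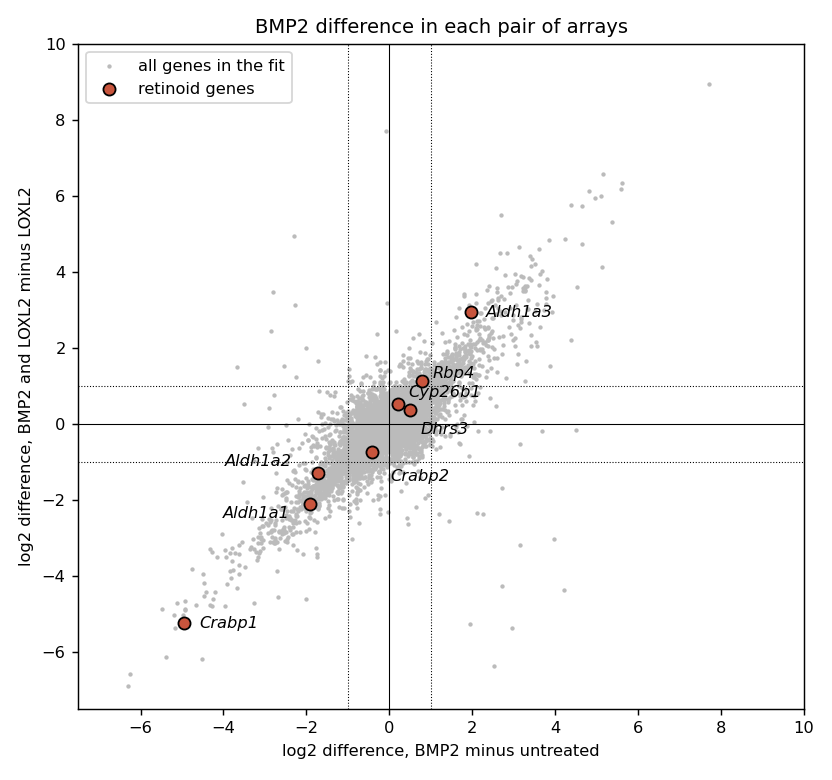
Log2 difference with BMP2 between the 2 arrays with LOXL2 (vertical) against that between the 2 arrays without it (horizontal), for all 24041 genes (grey) and the 8 modelled retinoid genes (red); dotted lines mark 2-fold. Crabp1 lies at -5.24 and -4.94, near the lower left end of the cloud, and Aldh1a3 at 2.95 and 1.97 in the upper right.

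LOXL2 was examined in the same additive limma model, where it has 2 arrays on each side. None of the 8 genes was called at an adjusted p under 0.05, and neither was any of the 24041 genes (0% higher and 0% lower); 1485 genes had an unadjusted p under 0.05, and eBayes with trend and robust settings called 14 genes, 0 of them retinoid genes. At least 2-fold in both LOXL2 pairs, 0 of the 8 genes were higher and 0 lower, where 0.0666% of all genes were higher and 0.0666% lower. Crabp1 had a fitted LOXL2 effect of -0.58 ± 0.10 (adjusted p = 0.789), with lower values beside LOXL2 in both pairs, by log2 differences of -0.73 with BMP2 and -0.43 without it. Cyp26b1 had 0.47 ± 0.11 (adjusted p = 0.789), with 0.64 with BMP2 and 0.31 without it. These 2 were the retinoid genes with an unadjusted p under 0.05, at 0.0148 for Crabp1 and 0.0283 for Cyp26b1.

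Aldh1a3 had the largest fitted LOXL2 effect of the 8 genes, 0.81 ± 0.30 (adjusted p = 0.792). Its LOXL2 difference was 1.30 with BMP2 and 0.31 without it, and the test of the effect did not pass. For the remaining 5 genes the fitted LOXL2 effect ran from -0.18 for Crabp2 to 0.16 for Aldh1a2, with adjusted p from 0.819 to 0.946. The median over the 8 genes was 0.10, and over all genes it was -0.003.

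Other genes of the pathway were followed by list, with calls from the same model, and the lists were set up with earlier results of these arrays known. Calls and p-values for BMP2 in these lists are therefore a description and not a test. The counts below stand beside the 10.3% of all genes called higher and the 9.97% called lower with BMP2. Among 15 genes of retinoid transport and storage, 11 were modelled, of which 0 rose and 2 fell with BMP2, with a median of -0.11. Lrp2, an endocytic receptor that recovers Rbp4 in the kidney, fell by 2.14 ± 0.21 on the brightest of 3 probes, and its other 2 probes were below background. Bco2, which cleaves carotenoids, fell by 0.76. Lrat, which stores retinol as esters, was below background on all 4 arrays.

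In the list of 24 retinoid enzymes 18 were modelled, of which 2 rose and 3 fell, with a median of 0.002. Adh1, an alcohol dehydrogenase that can oxidise retinol, fell by 1.74 ± 0.08, with 615 and 660 on the arrays with BMP2 and 1878 and 2312 on those without it. Beside Adh1 and Aldh1a7, Akr1b3 fell by 0.37. The 2 that rose were Cyp1b1, by 0.38, and Rdh13, by 0.34, and a second probe of Rdh13 gave -0.06 and -0.03 in the pairs with and without LOXL2. Rdh10, which makes retinaldehyde from retinol in the embryo, differed by 0.06 ± 0.06 (limma adjusted p = 0.51). Cyp26a1, a retinoic acid-inducible clearing enzyme, was below background on all 4 arrays.

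All 16 genes of the receptor and cofactor list were modelled, of which 1 rose, 1 fell and none reached 2-fold in both pairs. Rxra, a partner receptor of the RARs, rose by 0.38 ± 0.06 (limma adjusted p = 0.0496), and Nr2f1, an orphan receptor, fell by 0.54. Rarg differed by 0.35 ± 0.06 (limma adjusted p = 0.0517) and Rara by 0.24 ± 0.05 (limma adjusted p = 0.0756). Rarb, a receptor gene that retinoic acid itself induces, differed by 0.19 ± 0.05 (limma adjusted p = 0.106), and its second probe above background gave -0.29 and -0.31 in the pairs with and without LOXL2. Rxrb and Rxrg differed by 0.21 and 0.09 (limma adjusted p = 0.101 and 0.308).

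Of 19 genes listed as retinoic acid targets 12 were modelled, of which 1 rose and 3 fell, with a median of -0.27. Rarres1, a retinoid-responsive gene named from human skin, rose by 3.44 ± 0.11. It had 3166 and 2418 on the arrays with both proteins and BMP2 alone and 253 and 245 on those with LOXL2 alone and without treatment. Rarres2, which encodes the chemoattractant chemerin, fell by 1.74 ± 0.07. Pdgfra fell by 0.79 and Meis1 by 0.73.

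**Figure D3:**
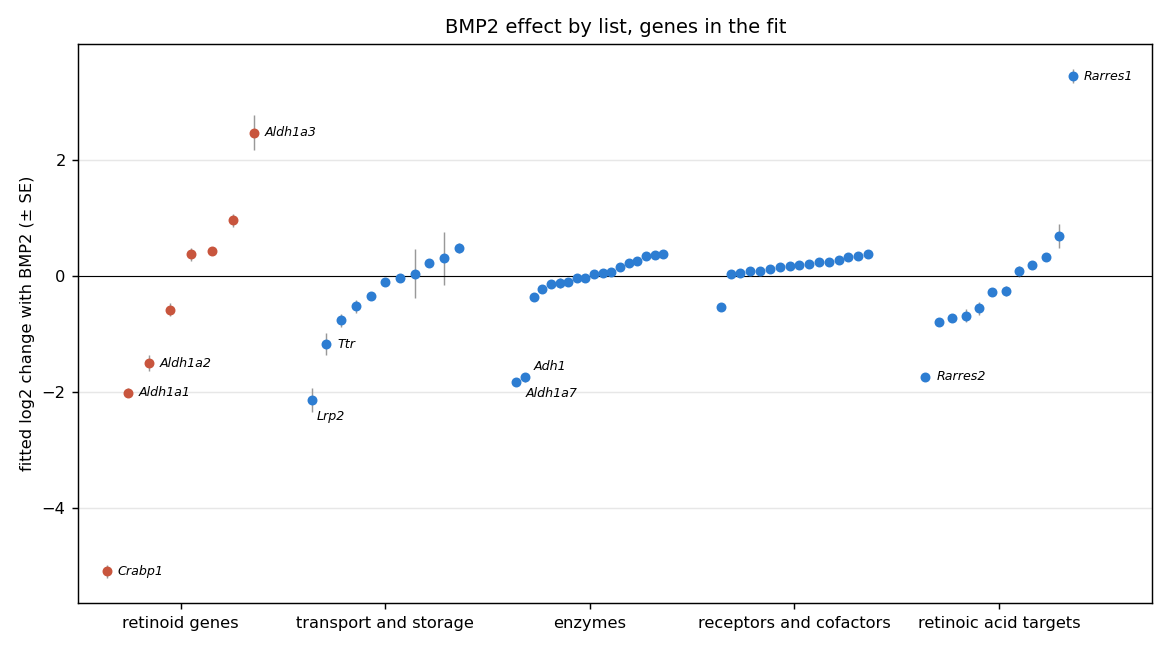
Fitted log2 change with BMP2 (± SE) for the modelled genes of each list, sorted within the list, with the retinoid genes in red and other pathway genes in blue; names are given where the change is at least 2-fold. Receptors and cofactors stay within -0.54 and 0.38, while Crabp1 at -5.09 and Rarres1 at 3.44 are the extremes.

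Markers of other cell types moved on the same arrays, where 10.3% of all genes were called higher with BMP2 and 9.97% lower. Of 8 chondrocyte markers 8 rose with BMP2, of 8 tendon and fibroblast markers 5 fell, and of 10 macrophage and leukocyte markers 4 fell. Of 9 markers of meninges 4 fell and 1 rose. Of 5 modelled markers each, 2 fell and 1 rose for endothelium and 2 rose for nerve and glia. Of 4 modelled markers each, 2 fell for skeletal muscle, 1 fell for epidermis and 0 were called for adipocytes. The summed level of the meninges list, relative to each array's 75th percentile, was 51.9 and 53.7 with BMP2 against 65.7 and 62.4 without it, and that of the tendon and fibroblast list was 66.3 and 71.3 against 94.9 and 94.2. Such sums weigh bright probes most, and the brightest of the meninges list, Zic1, differed by -0.26 and was not called (limma adjusted p = 0.136). In the same list Foxd1 rose by 0.62 and Bnc2 fell by 0.45. Ptgds fell by 5.11, with 128 and 137 on the arrays with BMP2 and 4069 and 4894 on those without it. Foxc2 differed by 0.27, Tbx18 by -0.17 and Slc13a4 by -0.57 without being called. Slc6a13 and Slc47a1, transporters of the meninges list, were well above background on both arrays without BMP2 and on neither with it. In whole cultures, fewer cells of a type and less RNA per cell cannot be told apart, and the part of these cell types in the values of Crabp1, Aldh1a1 and Aldh1a2 was not tested.

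For the 4 genes at least 2-fold different in both pairs, the nearest patterns were sought among 22608 other genes well above background, by the root mean square distance between log2 levels on the 4 arrays after centring each gene. The 4 arrays give few degrees of freedom, so a small distance mostly restates a similar BMP2 difference. Nearest to Crabp1 was Sfrp2, a secreted Wnt modulator, at a distance of 0.0213, with differences of -5.25 under LOXL2 and -4.88 without it. The next were Cpb1, Myh1, Ptgds and Tmem178, at 0.181 to 0.268. Of these, Myh1 is in the skeletal muscle list above and Ptgds in the meninges list. Nearest to Aldh1a1 was Slc1a6, a glutamate transporter, at 0.0312, followed by Tnmd, a tendon membrane protein, at 0.0424.

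Aldh1a2 lay nearest to 8430426J06Rik, at 0.0239, followed by Lce1e, Tub, Fam13a and Ccdc38 at 0.0652 to 0.0906. For Aldh1a3 the nearest gene was the actin-severing protein gene Scin at 0.0686, and the cartilage link protein gene Hapln1 lay at 0.123. Scin had differences of 3.14 under LOXL2 and 1.93 without it, and Hapln1 had 2.83 and 1.95. That these genes resemble Aldh1a3 follows from how they were picked.

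**Figure D4:**
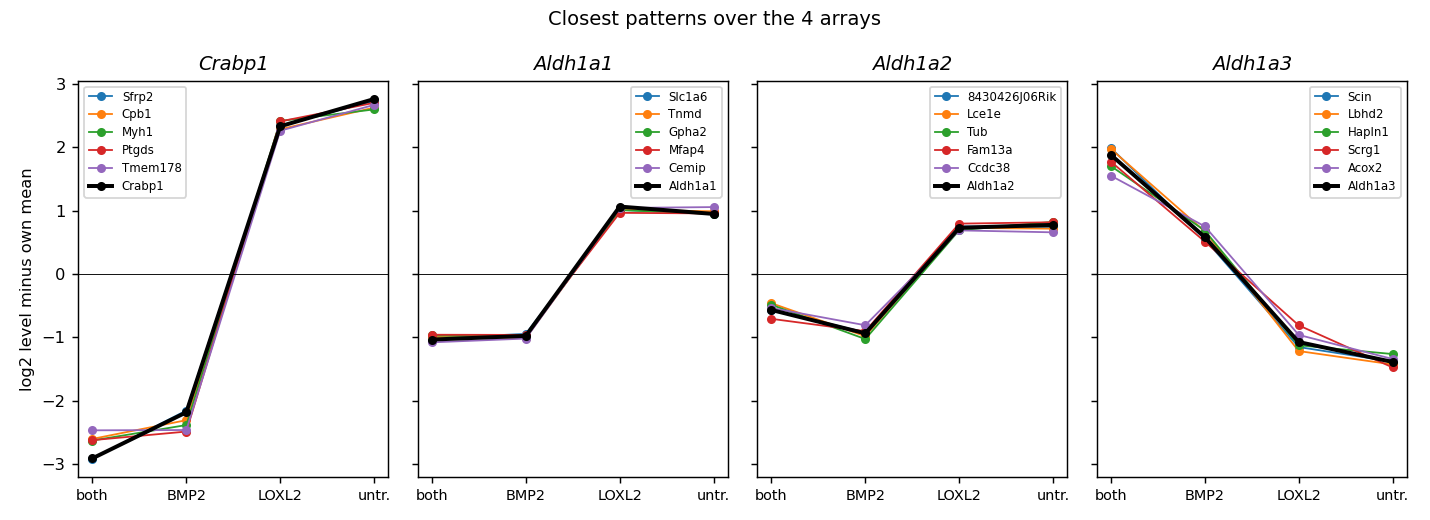
Log2 level on the 4 arrays, each gene centred on its own mean, for Crabp1, Aldh1a1, Aldh1a2 and Aldh1a3 (black) and the 5 genes nearest to each (colours); lines join the arrays only to guide the eye. Sfrp2 lies on the line of Crabp1, at a distance of 0.0213.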

How the data were processed

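Each of 4 cultures was hybridised to 1 single-colour Agilent array, from 100 ng of total RNA labelled with Cy3, per the labels. The deposited scanner files hold an intensity per spot, which the authors obtained with Agilent Feature Extraction 10.7.3.1, as the submitters' processing notes state. Per the file headers, spatial and multiplicative trends were removed, separate background correction was off, and surrogate values were used for the weakest signals. The deposited value table holds the same intensities averaged per probe, and 99.8% of probes were within 0.1% of the scanner files on each array. Surrogate values can affect dim signals such as those of Stra6.

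Here, spots marked as outliers (109 to 144 per array) were left out, processed signals were divided by the array's 75th percentile (711 to 743) over 59305 non-control spots and put on the log2 scale, and spots of a probe were averaged. Probes well above background on at least 2 arrays were kept. Names came from a RefSeq table of GRCm38.p6 by accession (26762 probes) or from the file (28919 probes), and the probe with the highest mean stood for a gene. BMP2 and LOXL2 effects were fitted in an additive model with limma 3.58.1 (R 4.3.3, data.table package version 1.17.8), which leaves 1 residual degree of freedom, and p-values were adjusted over 24041 genes by the Benjamini-Hochberg method, two-sided. The fit was tested on simulated data. Named pathway genes were those at least 2-fold different in both BMP2 pairs, those called for LOXL2, 6 receptors, Rdh10, Lrat and Cyp26a1; other called genes that are named were chosen after their values were seen. One further pathway gene is not reported here. The members and lists were chosen with earlier results of these data known. Over probes printed 10 times, the median SD of log2 spots was 0.0649 to 0.0674. That is scatter between spots of 1 array only, and it is smaller than the error the software assigns. The labels do not say that the cultures came from separate animals, and with 1 array per treatment the residual degree of freedom is the interaction of BMP2 and LOXL2, so p-values measure no spread between replicates. The number of arrays limits the precision. Alternatives covered the scaling, background correction, dim filter, features, variance model and source of values.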

Additional observations from a re-analysis of the deposited data

Results flagged for a closer look

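A result is given here where the measured differences of the 2 pairs of arrays had opposite signs; each side is 1 array against 1, and the differences were not tested. The BMP2 difference of Stra6 was 1.32 under LOXL2 and -1.90 without it, and its LOXL2 difference was 2.44 with BMP2 and -0.78 without it (log2), but 3 of the 4 Stra6 values were not well above background, each of these differences involves at least 1 of them, and no direction is read. The LOXL2 difference of Aldh1a2 was 0.37 with BMP2 and -0.05 without it, and that of Rbp4 was 0.31 and -0.02. For Aldh1a1 the LOXL2 differences were -0.06 and 0.12, and for Dhrs3 -0.01 and 0.12. For these 4 genes the error of such a difference, from the errors the scanner software assigned, was 0.204 to 0.249. Both LOXL2 differences of Aldh1a1, Aldh1a2, Rbp4 and Dhrs3 were within 2 such errors of 0. Repeated spots of a probe varied less than the assigned error, so this does not show that the values are equal.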

How the results depend on the processing

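The direction of the BMP2 effect of each of the 8 genes was the same under all 8 other settings, and no LOXL2 call changed. Of 64 BMP2 effects of single genes under other settings, 50 kept their side of the threshold, 9 newly passed it and 5 no longer did, all 5 with no filter on dim probes. In that setting 0 genes were called higher and 0 lower in the whole table by limma, and so 0 of the retinoid genes in either direction; 4808 genes were higher and 4451 lower at an unadjusted p under 0.05, more genes are tested there (35077), and the cause was not tested. The count of genes called higher with BMP2 was 4 with normexp background correction and 4 with eBayes trend and robust settings, in place of 2, since Cyp26b1 and Dhrs3 then passed, and the count called lower was 4 in both, in place of 3, as Crabp2 passed; over all genes 4873 and 5854 were then called higher and 4213 and 4535 lower, against 2485 and 2398. Requiring a fitted 2-fold change left 1 gene called higher, as Rbp4 dropped out (545 of all genes higher and 723 lower). Crabp2 and Dhrs3 also passed when genes had to be well above background on all 4 arrays. There 4 were called lower and 3 higher, where 2887 and 3499 of 22617 genes were. With median centring Dhrs3 passed, with 3 called higher, as were 3177 of 24041 genes. With a 1.5-fold limit in both pairs, 2 genes were higher, as were 5.30% of all genes. With normexp 2 genes were at least 2-fold lower in both pairs, in place of 3, as Aldh1a2, at a fitted -0.87, dropped out. That setting adds an offset of 50, which shrinks ratios between dim signals, and how much of the change it made was not tested. The share of all genes past that limit was not counted with normexp. Over all settings the fitted BMP2 effect ran from -5.10 to -4.39 for Crabp1, -2.04 to -1.97 for Aldh1a1, -1.51 to -0.87 for Aldh1a2 and 1.73 to 2.50 for Aldh1a3. No paired analysis was possible because each treatment has 1 array, and for the same reason no replicate could be left out. Signal over background limits Stra6, Aldh1a2 and the low arrays of Crabp1 and Aldh1a3.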
